A study of Mus musculus with 16 samples.

Results

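Bcl11a is a repressor with zinc fingers, while Spi1, also called PU.1, belongs to the ETS factors and is needed by the myeloid and B-lymphoid lineages. The members described here are the 1149 stretches of the mouse genome where Bcl11a was called in at least 2 of 6 peak lists, no Spi1 region was found in WT-iMOS cells, and no protein-coding gene started or ended nearby. They were chosen from 6353 Bcl11a regions, made by merging the Bcl11a peaks of 6 libraries wherever they shared 1 bp. Of these, 1995 shared no base with any of 10496 Spi1 regions built in the same way from 6 WT-iMOS Spi1 libraries. Within the 1995, the midpoint of 1149 regions (57.6%) lay more than 1 kb from every start and end of 21887 protein-coding genes. The remaining 846 lay near a gene end and served for comparison, as did 3214 Bcl11a regions that were far from gene ends but shared sequence with Spi1. Presence in the Bcl11a and WT-iMOS Spi1 lists and distance to genes chose the members, so these values are given as a description.

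The study addressed how Bcl11a acts in MPP3 cells, a myeloid-biased multipotent progenitor population that was sorted here from mouse bone marrow. CUT&Tag was used, in which an antibody brings a transposase to the bound factor so that the DNA nearby is cut and tagged. The 16 libraries formed 6 groups: Bcl11a in WT-iMOS T1 (3 libraries) and WT-iMOS T2 (3), Spi1 in WT-iMOS T1 (3) and WT-iMOS T2 (3), and Spi1 in KO-iMOS T1 (2) and KO-iMOS T2 (2). All titles carry 3m. The meaning of iMOS, T1, T2 and 3m is not explained in the labels, nor which gene KO-iMOS lacks. Nothing says that replicates came from separate animals, so the p-values below measure only the spread between these samples. Bcl11a was not profiled in KO-iMOS among the libraries analysed here.

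Some libraries stood apart. The peak names in the Spi1 KO-iMOS T1 lists begin with PWT and those in the KO-iMOS T2 lists with PKO, while the WT-iMOS lists begin with BWG or PWG for T1 and BMG or PMG for T2. The labels do not explain these stems, so the KO-iMOS libraries are given 1 by 1. The Bcl11a lists held 2605 to 7270 peaks on the chromosomes used, and depth is unknown because the lists carry no read counts. The longest lists were those of Bcl11a T1 replicates 2 and 3, and without these 2 libraries the rule left 563 members.

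Bcl11a is best known in red cells, where it holds the fetal-type globin genes silent by recruiting repressor complexes, and it is also required for B-lymphoid development. Spi1 binds a GGAA core and occupies many enhancers of blood progenitors. Sites distant from gene ends are where enhancers usually lie, although a distant site may also be an internal start of a gene or a non-coding gene.

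The genome sequence of the members as a whole was not used here, and the sequences shown are RefSeq start windows (GRCm38.p6, the assembly mm10 names) that lie wholly inside a member called in all 6 Bcl11a lists. Each window runs from 250 bases before to 50 after an annotated transcript start, read 5′ to 3′ on the strand of the transcript. They are shown because they are annotated starts inside regions that the rule counts as far from gene ends. A region merges the peaks of several lists, so a list's own peak need not reach the window. No base of the Gm32747 window lay in a Bcl11a peak of T1 replicate 1, T1 replicate 2 or T2 replicate 3. The Mef2a window likewise missed the peak of T2 replicate 3. Capitals mark matches on either strand to 9 motifs that were searched: the Bcl11a motif TGACCA, the ETS motif GGAAGT, the Runx motif TGTGGT, the motif AGATAA of Gata factors, the AP-1 motif TGANTCA, the motif TTGCNNAA of C/EBP factors, the Sp and Klf motif CCGCCC, the Ctcf core motif, and the doubled core of interferon regulatory factors. The letter N stands for any base.
Gm32747, chr2:167839913-167840212, minus strand: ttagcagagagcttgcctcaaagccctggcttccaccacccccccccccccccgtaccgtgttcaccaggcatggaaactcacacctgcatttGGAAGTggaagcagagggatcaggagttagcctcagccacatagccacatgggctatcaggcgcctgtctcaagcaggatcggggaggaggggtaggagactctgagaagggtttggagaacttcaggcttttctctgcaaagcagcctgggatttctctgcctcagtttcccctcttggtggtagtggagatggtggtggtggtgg
Mef2a, chr7:67372809-67373108, minus strand: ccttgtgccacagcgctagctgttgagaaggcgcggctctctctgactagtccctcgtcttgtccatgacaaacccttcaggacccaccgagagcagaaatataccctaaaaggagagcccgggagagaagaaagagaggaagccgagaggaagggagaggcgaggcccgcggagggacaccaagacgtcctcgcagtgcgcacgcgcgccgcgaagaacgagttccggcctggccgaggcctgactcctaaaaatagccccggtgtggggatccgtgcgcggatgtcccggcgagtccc
Clk3, chr9:57765065-57765364, minus strand: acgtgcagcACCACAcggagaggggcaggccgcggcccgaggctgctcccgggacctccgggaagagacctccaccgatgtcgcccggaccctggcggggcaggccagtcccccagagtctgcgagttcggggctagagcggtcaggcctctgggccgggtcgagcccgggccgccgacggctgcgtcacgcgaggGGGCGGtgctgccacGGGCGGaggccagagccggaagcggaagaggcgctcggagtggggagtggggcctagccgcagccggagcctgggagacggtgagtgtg
Prkar1a, chr11:109650699-109650998, plus strand: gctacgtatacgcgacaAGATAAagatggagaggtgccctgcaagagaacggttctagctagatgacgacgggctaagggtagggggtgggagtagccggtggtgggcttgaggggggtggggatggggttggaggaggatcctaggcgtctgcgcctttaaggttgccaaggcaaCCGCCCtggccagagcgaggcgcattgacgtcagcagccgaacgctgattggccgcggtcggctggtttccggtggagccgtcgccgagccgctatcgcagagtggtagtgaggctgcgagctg

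The windows of Mef2a, Clk3 and Prkar1a held 27, 33 and 25 CpG dinucleotides, and that of the non-coding gene Gm32747 held 4. None of the 4 held TGACCA, and the Mef2a window matched none of the 9 motifs. Mef2a encodes a MADS-box transcription factor, Clk3 a kinase that acts on splicing factors, and Prkar1a a regulatory subunit of protein kinase A.

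Most members were called in few lists. Of the 1149, 749 (65.2%) were in 2 Bcl11a lists, 250 in 3, 90 in 4, 38 in 5 and 22 (1.91%) in all 6. Far regions with Spi1 were spread more evenly, with 959 of 3214 (29.8%) in 2 lists and 701 (21.8%) in 6. Near-gene regions without Spi1 were closer to the members, with 523 (61.8%) in 2 lists and 28 (3.31%) in 6. Members with a peak numbered 452, 588 and 652 in the 3 T1 libraries and 579, 291 and 368 in the 3 T2 libraries. The pair of lists that alone supported the most members was T1 replicates 2 and 3, with 193 members, followed by T1 replicate 1 with T2 replicate 1, with 93. Across all 16 libraries, the plot of regions by library shows these shares beside those of the 2 comparison classes.

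**Figure D1:**
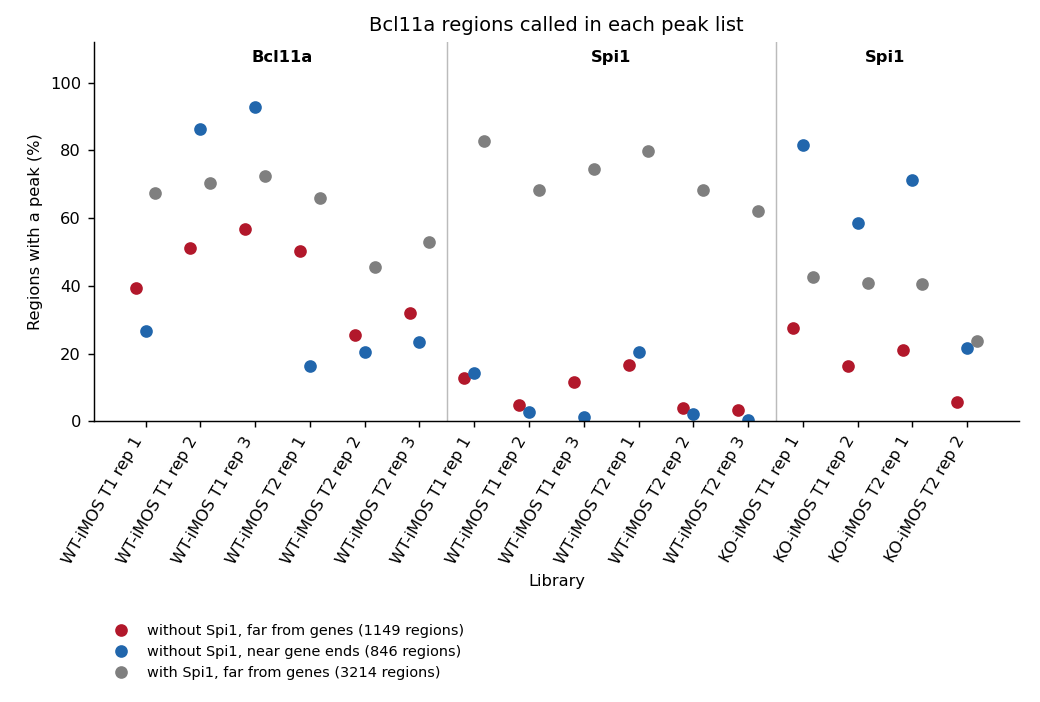
Share of Bcl11a regions with a peak in each of the 16 libraries (percent, y axis; library, x axis), 1 point per class and library, for 1149 regions without Spi1 far from genes, 846 without Spi1 near gene ends and 3214 far regions with Spi1. Members had a peak in 25.3 to 56.7% of cases per Bcl11a list, and near-gene regions stood higher in Bcl11a T1 replicates 2 and 3 and in all 4 KO-iMOS Spi1 lists.

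The missing overlap with Spi1 was not the same as missing Spi1 signal. In the WT-iMOS Spi1 lists, which the rule used, 555 members (48.3%) had a peak in 0 of 6, 579 (50.4%) had one in 1 of 6, and 15 had peaks in 2 lists that did not overlap each other. By library, the T1 lists covered 12.9, 4.87 and 11.6% of members and the T2 lists 16.5, 3.92 and 3.22%. A Spi1 region lay within 1 kb of 41 members and within 10 kb of 232 (20.2%), and the median gap was 47667 bp. Over all 10 Spi1 lists, 355 members (30.9%) had no peak.

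The Spi1 lists of KO-iMOS took no part in the choice of members. There, Spi1 was called at 316 (27.5%) and 187 (16.3%) of the 1149 members in T1 replicates 1 and 2, and at 241 (21.0%) and 66 (5.74%) in T2 replicates 1 and 2. The near-gene regions without Spi1 were covered far more often in the same 4 lists, at 81.6, 58.5, 71.2 and 21.5%. Members were lower in 4 of 4 libraries, with differences of -54.1 to -15.8 percentage points and a mean of -40.6. The exact two-sided sign-flip test over the 4 libraries gave p = 0.125, the smallest value this design allows. When every list was shortened to the same number of peaks the difference was -13.0 points.

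Counted by region, 250 members (21.8%) had KO-iMOS Spi1 in at least 2 of 4 lists, against 51.9% of all 6353 Bcl11a regions. That background includes the regions with WT-iMOS Spi1, which the rule kept out of the members. Gaps to it are therefore given as a description. In 4 of 4 lists Spi1 was called at 33 members (2.87%), against a background of 25.3%. Far regions with WT-iMOS Spi1 reached 41.3% in at least 2 lists, and near-gene regions without it 73.8%. At 754 members (65.6%) no KO-iMOS list had a peak. At 114 members (9.92%) KO-iMOS Spi1 was called in at least 2 lists and WT-iMOS Spi1 in none, against 338 of the 846 near-gene regions (39.95%).

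Among the members with Spi1 in all 4 KO-iMOS lists, the region at chr17:45752407-45753193 stood out by its 6 Bcl11a lists and 0 WT-iMOS Spi1 peaks. It lies in the non-coding gene F630040K05Rik, 18694 bp from 1600014C23Rik. Its deposited Bcl11a fold enrichment was 3.78, 4.56 and 4.61 in T1 and 6.19, 5.19 and 5.92 in T2, values that belong to each list and set no level between lists. A neighbour in the same gene, chr17:45746755-45747432, was likewise in all 6 Bcl11a lists and in 3 KO-iMOS lists. Other members with 4 of 4 lay inside 9430038I01Rik (6 Bcl11a lists), at 51775 bp from Cdkn2aipnl (6 lists), inside Adssl1, a purine synthesis enzyme (5 lists), and inside Hnrnpl, a splicing regulator (4 lists). Each of these had a peak in 1 WT-iMOS Spi1 list.

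Members over annotated starts differed from the rest in the KO-iMOS lists. A RefSeq start window overlapped 115 members (10.01%), of which 88 met a window of a protein-coding gene, at an internal or alternative start, and 27 met only windows of other genes. For far regions with Spi1 the share was 5.29%, and for near-gene regions without Spi1 it was 75.5% (639 of 846). Spi1 in KO-iMOS was called at 73.9 and 46.1% of these 115 in T1 and at 67.0 and 18.3% in T2. At the 1034 members without a window, the shares were 22.3, 13.0, 15.9 and 4.35%. The difference was 13.9 to 51.6 points, with a mean of 37.4, and was positive in 4 of 4 libraries (exact two-sided sign-flip p = 0.125, the smallest possible). Counted by region, 100 of the 115 (87.0%) had at least 1 KO-iMOS Spi1 peak, against 395 of all 1149 members (34.4%) and 60.6% of all Bcl11a regions. With the 115 left out, the members' shares minus those of near-gene regions were -59.2 to -17.2 points. This split was chosen after the data were seen.

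**Figure D2:**
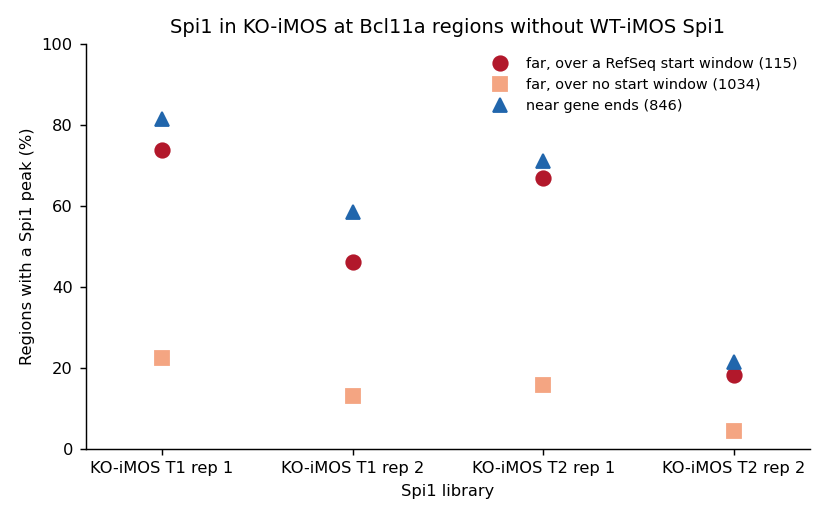
Share of regions with a Spi1 peak (percent, y axis) in each of the 4 KO-iMOS libraries (x axis) for members over a RefSeq start window (115), members over none (1034) and near-gene regions without Spi1 (846). In each library the members over a start window sit near the near-gene regions, and the other members sit below both.

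The same 115 members leaned on particular Bcl11a lists. T1 replicates 2 and 3 had a peak at 83.5 and 93.0% of them, against 24.3% for T1 replicate 1 and 27.0 and 31.3% for T2 replicates 2 and 3, while T2 replicate 1 had one at 23 of 115. For the other 1034 the 6 lists ranged from 25.1 to 53.8%. Near-gene regions without Spi1 showed the same high pair of libraries, as the plot of regions by library shows.

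Their windows held more CpG than start windows at large. The 154 windows over members had a median GC content of 64.2% and 25 CpG, against 52.7% and 7 over all 32851 windows. Windows over near-gene regions without Spi1 had 66% and 26, and those over far regions with Spi1 61.7% and 21. CCGCCC occurred in 70.8% of the windows over members and in 35.7% of all windows, compared with 80.9% over near-gene regions and 61.0% over far regions with Spi1. GGAAGT, the ETS core motif, occurred in 18.8%, against 23.8% of all windows, 16.8% over near-gene regions and 33.7% over far regions with Spi1. TGACCA occurred in 10.4%, against 13.6% of all windows. The remaining motifs, each against all windows, stood at 15.6 and 16.8% for TGTGGT, 2.60 and 11.2% for AGATAA, 3.25 and 7.81% for TGANTCA, 5.19 and 10.8% for TTGCNNAA, 1.95 and 3.44% for the interferon regulatory factor motif, and 3.25 and 2.43% for the Ctcf motif. These shares describe start windows only, and the other 1034 members were not searched.

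Members were sorted by the T1 and T2 lists that held them. Peaks came from T1 lists alone at 337 members (29.3%), from T2 lists alone at 163 (14.2%) and from both at 649 (56.5%). Over all 6353 Bcl11a regions, 31.5% had T1 peaks alone and 5.49% T2 peaks alone. The T1 lists were longer for the most part, with 4150 to 7270 peaks against 2605 to 4634. Called in 3 of 3 T1 lists and 0 of 3 T2 lists were 49 members (4.26%), below the 6.94% of all Bcl11a regions. The reverse pattern was found at 32 members (2.79%), above the 1.12% of all Bcl11a regions. Near-gene regions without Spi1 split as 73 (8.63%) and 2 (0.236%), and far regions with Spi1 as 161 (5.01%) and 36 (1.12%). A region in only 2 lists can show neither pattern. Such regions made up 65.2% of members, 61.8% of near-gene regions without Spi1 and 29.8% of far regions with Spi1. These shares therefore depend on the number of lists per region as well. Together 81 members had all lists of one label and none of the other. With 1 Bcl11a library left out, and 2 of 2 asked for in its label, this number was 126 (without T2 replicate 1) to 276 (without T1 replicate 1); the other libraries gave 133 to 147.

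**Figure D3:**
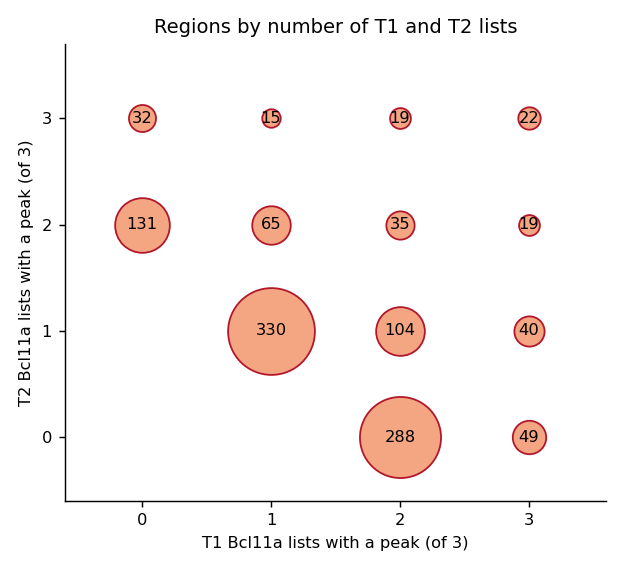
Members by the number of T1 (x axis) and T2 (y axis) Bcl11a lists with a peak, with circle area proportional to the printed number of regions. The largest groups were 1 T1 with 1 T2 list (330) and 2 T1 lists alone (288), and 22 regions were in all lists.

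As a share of each list, peaks in members made up 10.9, 10.1 and 8.98% of the T1 lists and 12.5, 11.2 and 11.6% of the T2 lists. The means were 9.99% ± 0.970 (SD, n = 3) for T1 and 11.8% ± 0.657 (SD, n = 3) for T2, a difference of 1.78 points. Far regions with Spi1 made up 41.5% of the T1 lists and 52.7% of the T2 lists, and near-gene regions without Spi1 9.62 and 5.30%. Presence in these lists chose the members, so the shares are a description with no test. The difference was 0.991 without T2 replicate 1, 1.09 without T2 replicate 3 and 3.02 without T1 replicate 2. It was 2.70 and 2.68 when Spi1 regions were built without WT-iMOS Spi1 T2 replicate 1 or 2, and 8.47 points with lists of equal length.

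The members found in T1 alone were led by regions of unlike kinds. The region 2216 bp from Gm40367 overlapped no annotated gene and had a mean −log10 p percentile of 82.9 but a fold percentile of 0.546. At chr12:69361163-69361827 the member covers Rn7s2, a gene for the RNA of the signal recognition particle, 4294 bp from Nemf. A member inside Ski, a repressor of TGF-beta signalling, had a fold enrichment of 4.39, 3.75 and 3.90 in the 3 T1 lists. Members near the meiosis gene Shoc1 and inside Iffo2 completed the group. The Rn7s2 member had peaks in 2 WT-iMOS Spi1 lists, and those at Gm40367, Shoc1, Ski and Iffo2 in 1 each. In T2 alone, the leading members lay inside Sema4b, a semaphorin, 9743 bp from Cd81, a tetraspanin, and inside Ccdc102a, Vps13d and Cables1. The Sema4b member lay 56 bp from a WT-iMOS Spi1 region and had a peak in 1 WT-iMOS Spi1 list. The Vps13d member had peaks in 2 such lists, and those at Cd81, Ccdc102a and Cables1 in none. At Sema4b the fold enrichment was 5.22, 5.80 and 5.80 in the 3 T2 lists, and at Cd81 it was 6.19, 6.64 and 6.89. The mean −log10 p percentile of these 5 was 75.3 to 79.5.

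Strength was read as ranks within a list, since the deposited fold enrichment (column 7) and −log10 p (column 8) belong to each list. A percentile of 100 is the strongest peak of its list. The median member stood at a −log10 p percentile of 40.7 ± 1.49 and a fold percentile of 40.8 ± 2.28 (mean and SD over n = 6 libraries), with a median peak width of 328 ± 16.5 bp. Far regions with Spi1 stood at 64.6 ± 2.93, 62.0 ± 2.63 and 405 ± 18.3 bp. The rule parted them from members by overlap with Spi1, which a wider region can meet more easily. This gap is therefore given as a description. Near-gene regions without Spi1 stood at 40.2 ± 8.0, 42.2 ± 6.76 and 337 ± 57.6 bp. The differences between members and near-gene regions did not exceed the spread between libraries. They were 0.492 points for −log10 p (exact two-sided sign-flip p = 0.875), -1.43 for fold (exact p = 0.625) and -9.08 bp for width (exact p = 0.594), each with a Benjamini-Hochberg value of 0.875 over the 3 tests. T1 replicates 2 and 3 went against the other 4 libraries, with −log10 p differences of -7.08 and -10.4 points against 0.915 to 7.76. Each median covers only the regions called in that library, so the regions compared differ between libraries. Presence in these same lists also chose both classes, so the tests cannot tell strength apart from that choice. Near-gene regions were called at 86.3 and 92.9% in T1 replicates 2 and 3, and at 16.2 to 26.6% in the other 4.

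Of the 9 members on immunoglobulin gene segments, 5 stood near the top by both ranks. Their mean percentiles were 94.8 or more for −log10 p and 96.1 or more for fold. Immunoglobulin loci hold arrays of variable (V) and constant (C) segments that B-lineage cells recombine. The top member, chr12:115372270-115372534, is a 265 bp stretch over Ighv1-62, which RefSeq lists as a V segment pseudogene. Its fold enrichment was 24.8, 32.4 and 32.9 in the T1 lists and 38.3, 36.7 and 34.4 in the T2 lists, where the median peak of a list had 4.72 to 5.44. By fold it ranked 54th, 24th and 25th of 4150, 5845 and 7270 peaks in T1 and 13th, 5th and 12th of 4634, 2605 and 3168 peaks in T2. It was thus near the top of all 6 lists. No KO-iMOS Spi1 list had a peak there, nor had any of the WT-iMOS Spi1 lists, which the rule used.

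Next came a constant-region segment, Ighg2c, at chr12:113287823-113288200, with a fold enrichment of 12.7, 18.2 and 20.1 in T1 and 21.5, 23.9 and 21.9 in T2. Ighg3 (chr12:113360099-113360499) had 8.03, 13.7 and 15.0 in T1 and 15.8, 18.4 and 15.8 in T2. Ighg1 (chr12:113329419-113329786) had no peak in T1 replicate 1, 13.7 and 13.1 in the other T1 lists, and 14.1, 15.2 and 13.1 in T2. On the light-chain locus, the V segment Igkv8-19 (chr6:70340935-70341188) had 9.60, 15.9 and 16.1 in T1 and 20.7, 24.2 and 19.9 in T2. Each of the 5 ranked within the first 361 peaks by fold of every list that held it. None of the 5 had a peak in the 4 KO-iMOS Spi1 lists, which took no part in the choice of members. They had none in the 6 WT-iMOS Spi1 lists either, but the rule used those lists. The 10 Spi1 lists had 3 to 31 peaks on other antigen receptor segments.

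**Figure D4:**
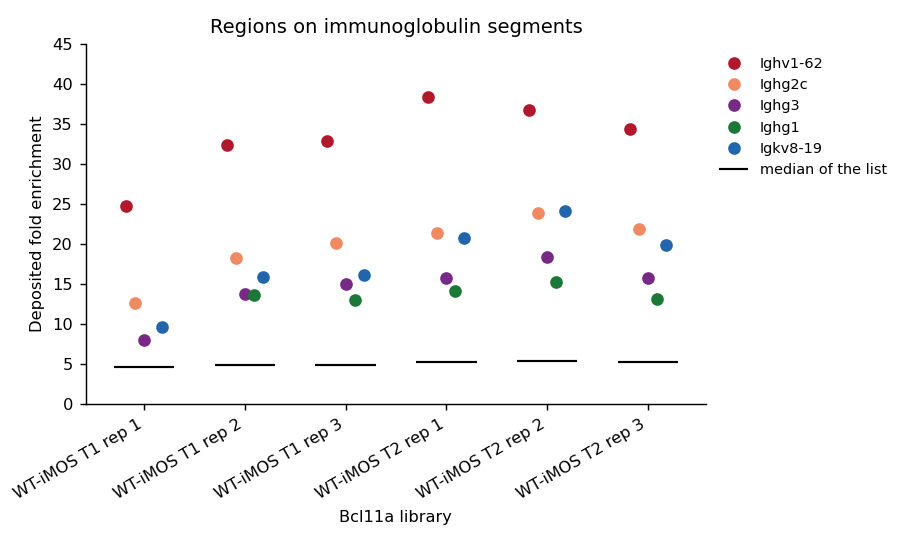
Deposited fold enrichment (y axis, linear) of the 5 leading members on immunoglobulin segments in each Bcl11a library (x axis), with a line at the median of all peaks of that list. All points lie above the list medians of 4.72 to 5.44, and Ighv1-62 is the highest in every library.

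Some of these peaks had a fixed edge. At Ighv1-62, Ighg2c, Ighg1 and Igkv8-19 the peak began at the same base in every list that held it, while at Ighg3 there were 3 different starts. Of the 400 members in at least 3 lists, 8 (2%) had a single start, against 68 of 2255 (3.02%) far regions with Spi1. The other 4 of the 8 were at Gm39850, Gtf2i, Gfod2 and Zbtb16. Another 4 members on V segments, Ighv1-54, Ighv1-58, Ighv1-62-3 and Ighv1-72, were in 2 T1 lists and no T2 list. Their mean percentiles were 3.99, 34.4, 17.1 and 86.4 for −log10 p and 24.9, 59.9, 41.8 and 94.4 for fold. Ighv1-58 and Ighv1-72 each had a Spi1 peak in 2 KO-iMOS lists and 1 WT-iMOS list. In all, 9 members lay on such segments, against 2 of the 3214 far regions with Spi1 and 0 of the 846 near-gene regions. Segments are not counted as protein-coding genes in the table, so the nearest such gene to Ighv1-62 was Zfp386 at 675312 bp. Short reads from near-identical segments may be placed on one or another of them, so the segment names are uncertain. A member over the pseudogene Vmn2r-ps23, chr5:109599033-109599306, ranked among them by fold, with a mean percentile of 96.5, and had a fold enrichment of 14.7, 18.6 and 18.6 in T1 and 9.24 in T2 replicate 1, with no peak in the other T2 lists.

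Small RNA genes were a second group. Genes for snRNA, rRNA, tRNA and related RNAs lay under 21 members (1.83%), against 15 far regions with Spi1 (0.467%) and 6 near-gene regions (0.709%). Their median −log10 p percentile was 60.5 but their median fold percentile was 21.3, compared with 39.3 and 41.5 over all members. The highest by −log10 p percentile was Gm24950 (83.8), an snRNA gene at chr11:101641741-101642588, in 6 of 6 lists. By fold percentile (51.9) it stood below Gm25939 (73.9), Rn7s2 (71.9) and Gm23143 (52.7). Its −log10 p was 22.5, 49.7 and 47.5 in T1 and 18.6, 11.0 and 15.2 in T2, with T1 replicates 2 and 3 highest, each value being that of its own list. Gm22317 at chr12:54737269-54738708 was also in all 6 lists, and Rnu3b3, a U3 RNA gene inside Tex14, was in 5. KO-iMOS Spi1 was called at 12 of the 21 (57.1%) in at least 1 list, against 34.4% of all members, 47.3% of members in at least 3 lists and 60.6% of all Bcl11a regions.

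**Figure D5:**
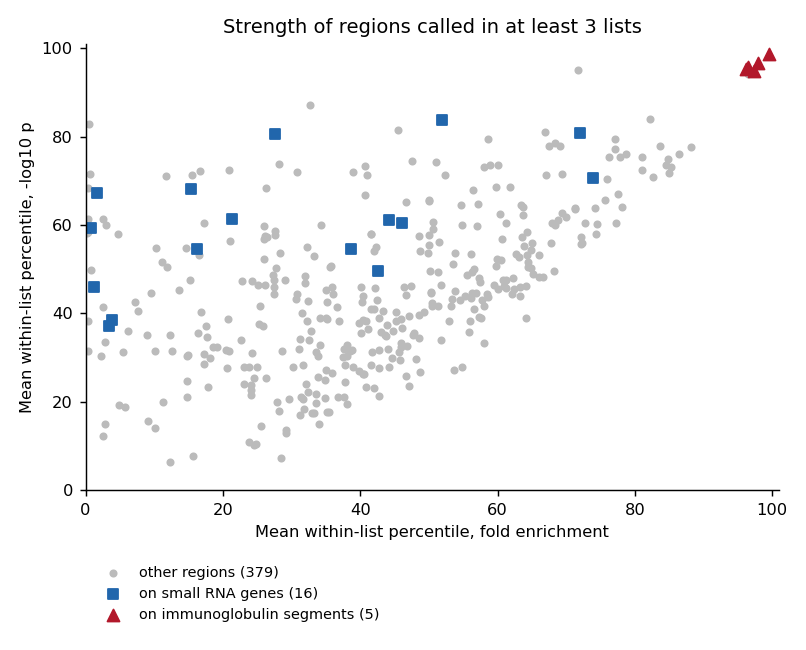
Mean within-list percentile of fold enrichment (x axis) against that of −log10 p (y axis) for the 400 members in at least 3 lists, 1 point per region. The 5 regions on immunoglobulin segments lie in the upper right corner, and several of the 16 on small RNA genes lie at the left, with low fold and middle to high −log10 p.

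Members of low fold percentile also clustered in 2 neighbourhoods that hold small RNA genes. On chromosome 8, 10 members lay between 123538464 and 123623960, nearest to Gas8 or Rhou, 2 of them on the 5S rRNA genes n-R5s100 and n-R5s120. Their fold percentiles were 0.624 to 3.05, while their −log10 p percentiles were 13.2 to 67.4, and 7 were in no T2 list. On chromosome 6, 8 members lay between 47654836 and 47760355, nearest to Gm40369, Gm40367 or Gm40363, with fold percentiles of 0.0773 to 0.735 and −log10 p percentiles of 27.0 to 82.9. One of these covers Rn4.5s, a 4.5S RNA gene. Of the 23 members in at least 3 lists whose fold percentile was under 5, 12 belonged to these 2 neighbourhoods. Members within one neighbourhood lie close together and may share repeated sequence, which was not tested, so the placement of their reads is uncertain.

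The remaining members of all 6 lists were single regions of unlike genes. Mocos, a molybdenum cofactor enzyme on chromosome 18, held the widest, 1990 bp, with −log10 p of 68.6, 97.7 and 119 in T1 and 45.1, 53.7 and 41.0 in T2. Its fold enrichment was 5.51 to 6.37, a percentile of 62.0 to 78.8, so it ranked by p far above its rank by fold. Tox2, an HMG-box factor of lymphoid cells, held a member at chr2:163229114-163229660 with a fold enrichment of 4.70, 8.96 and 6.75 in T1 and 6.78, 8.30 and 8.57 in T2. T1 replicate 1 was its lowest list. Cpn2, a plasma carboxypeptidase subunit, was 71317 bp from a member in the non-coding gene Gm26562, whose fold enrichment was 4.85 to 6.4. Members inside Arhgap23 and 6973 bp from Zswim4 reached a mean −log10 p percentile of 74.5 and 73.9. The start-window members of Gm32747, Prkar1a, Mef2a and Clk3, whose sequences are given above, stood lower, at 57.4, 49.99, 44.2 and 32.4, with Spi1 in 2, 3, 2 and 3 KO-iMOS lists. In the same order, they had peaks in 0, 0, 1 and 1 WT-iMOS Spi1 lists.

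By position, 559 members (48.7%) lay inside a protein-coding gene and 165 (14.4%) outside but within 10 kb. A further 224 (19.5%) lay over 10 to 50 kb away, 84 (7.31%) over 50 to 100 kb and 117 (10.2%) beyond 100 kb. The corresponding shares of far regions with Spi1 were 47.1, 12.04, 18.8, 7.56 and 14.6%. No annotated gene of any kind was met by 446 members (38.8%, against 41.9%), and 159 (13.8%, against 12.5%) overlapped a long non-coding RNA gene. The table has no exons, so exon and intron cannot be told apart. Members were 216 to 1990 bp wide, with a median of 441 bp. Far regions with Spi1, which the rule parted from members by that overlap, had a median of 538 bp.

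Members were scattered. They had 1001 different nearest genes, 110 of which were nearest to at least 2, and 92 members (8.01%) had another within 10 kb. Beside Gas8 (7 members), the genes nearest to the most were Gm40363 and Zfp386 (5 each), which stand for the neighbourhood on chromosome 6 and the immunoglobulin heavy-chain locus. Another 7 genes had 4 each: 1600014C23Rik, Adgrl2, Bahcc1, Gse1, Mid1, Mvb12b and Runx1. Far regions with Spi1 nearest to these genes numbered 12 at Gm40363, 4 at Mid1, 4 at Runx1, 0 at Gas8 and 1 or 2 at each of the rest. Just inside the distance limit, at 1001 bp, were members at Gm40369 and Git2, and just outside were regions inside Sft2d3 (999 bp) and Tob1 (986 bp), the latter in all 6 Bcl11a lists.

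The nearest genes were set against lists of blood lineage, chromatin and other genes. Over 12 lists of 321 different genes, a list gene was nearest to 47 members (4.09%), against 3.55% of all 4363 far Bcl11a regions and 3.36% of those with Spi1. Chromatin regulators had 11 members, stem and progenitor genes 7, granulocyte and monocyte genes 6, lymphoid genes 6, dendritic genes 4, erythroid, cell cycle and housekeeping genes 3 each, megakaryocyte genes 2, genes of other tissues 2, and mast cell and interferon genes 1 each. The 11 at chromatin regulators make 0.957% of members, against 0.550% of all far regions, and the 1 at interferon and inflammation genes 0.0870% against 0.390%. For stem and progenitor genes the shares of members and of all far regions were 0.609 and 0.504%. Granulocyte and monocyte genes had 0.522 and 0.550%, and lymphoid genes 0.522 and 0.504%. Dendritic genes had 0.348 and 0.229%, and erythroid genes 0.261 and 0.138%. Cell cycle genes had 0.261 and 0.321%, housekeeping genes 0.261 and 0.206%, and megakaryocyte genes 0.174 and 0.160%. Genes of other tissues had 0.174 and 0.115%, and mast cell genes 0.0870 and 0.0458%. Of the 11 at chromatin regulators, 2 belong to Arid1b, a subunit of a chromatin remodelling complex.

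Hdac4, a histone deacetylase, held a member over a start window in 3 T1 lists and 1 T2 list, with Spi1 in 4 of 4 KO-iMOS lists. Il6st (gp130), the signalling receptor chain of interleukin-6 family cytokines, was 32643 bp from a member in all 6 lists at chr13:112430823-112432030. Its fold enrichment was 4.14, 3.86 and 4.73 in T1 and 5.46, 5.14 and 4.87 in T2, and no KO-iMOS Spi1 list had a peak there. A peak was called there in 1 WT-iMOS Spi1 list, and a WT-iMOS Spi1 region lay 2846 bp away.

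Among stem and progenitor genes, Runx1, a core factor of blood stem cells, was nearest to 4 members, 3 of them inside the gene. It was also nearest to 4 far regions with Spi1. The best supported member at Runx1, chr16:92620841-92621473, was in 3 T1 lists and T2 replicate 3, with a fold enrichment of 3.97, 3.47, 5.24 and 4.99. Fli1, another ETS factor, held a member in 3 T1 lists and no T2 list, with Spi1 in 3 KO-iMOS lists and 1 WT-iMOS list. That member lay 219 bp from a WT-iMOS Spi1 region. Of the myeloid genes, Itgam (CD11b) held one in 3 T1 lists and 1 T2 list, and Cebpb, a C/EBP factor of granulocytes and macrophages, was 17193 bp from one in 3 lists. Lymphoid members in 1 T1 and 3 T2 lists lay 2772 bp from Id3, an inhibitor of E proteins, and inside Foxo1.

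The Bcl11a gene itself was 69653 bp from a member at chr11:24242955-24243466, which was in 2 T2 lists, no T1 list and 3 KO-iMOS Spi1 lists. Zfpm1 (FOG1), a Gata cofactor, held one in 2 T2 lists. Gfi1b, a repressor of erythroid and megakaryocyte cells, was nearest to a pair of members 10078 and 11167 bp away, one in 3 T2 lists alone and the other in 2 T1 and 2 T2 lists. Members in 2 to 4 lists also lay near Hpgds, H2-Aa and Batf3 and inside E2f2 and Cdkn1a, and, outside blood-specific genes, near Polr2a and inside Actb. The pancreatic gene Ins1 was nearest to 2 members at 59831 and 223061 bp.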

How the data were processed

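Bcl11a and Spi1 were profiled in sorted MPP3 cells by CUT&Tag, using a kit named in the labels' protocols. The authors deposited 1 narrowPeak list per library. The submitters' processing notes name Bowtie2, SAMtools, MACS2 and the build mm10, with neither versions nor settings. Whether peaks were called against a control is not stated there. Per peak, the authors deposited a score (not used for results), a fold enrichment (a ratio), and 2 columns of −log10 values, for the p-value and the q-value. No list carries read counts, so depth is unknown and no counting interval is given. The number of peaks limits the precision of each share.

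Python 3.11.15 with numpy 2.4.6, pandas 2.3.3 and scipy 1.17.1 was used. Peaks on chromosomes 1 to 19, X and Y were merged at 1 bp and kept when 2 of 6 lists had a peak. Genes, segments and small RNA genes came from RefSeq on GRCm38.p6. Ranks were taken within lists. Differences between classes were tested by exact two-sided sign flips over libraries at 0.05. A planned permutation of T1 and T2 labels is not reported, since presence in those lists chose the members. The tests were checked on simulated data. Motifs were planned at peak summits; with no genome they were searched in RefSeq start windows instead, and regions are placed by gene table only.

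Named members followed a rule: the 12 in the most Bcl11a lists, the 5 highest by each rank among those in at least 3 lists, up to 5 for T1 or T2 alone, up to 5 with the most KO-iMOS lists, up to 2 per gene list, the 5 genes nearest to the most members, and those beside the 1 kb limit. Segment, small RNA and start-window members, and other members of all 6 lists, were added after their values were seen. The members and lists were chosen with earlier results of these data known. Alternatives were another minimum of lists, any single Spi1 peak, −log10 q of 5, lists of equal length, 50% overlap, a 3 kb limit, summits for midpoints, and each library left out. One member that the rule takes is not reported here.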

Additional observations from a re-analysis of the deposited data

How the results depend on the processing

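The number of members was 659 with at least 3 of 6 lists for both factors, 555 when a Spi1 peak in any 1 WT-iMOS list removed a region, and 563 without both Bcl11a T1 libraries 2 and 3 (chosen after seeing the data); the other 18 settings gave 774 to 1462. Members in all lists of T1 or T2 alone numbered 122 with at least 3 lists, 42 when any 1 Spi1 peak removed a region and 122 with lists of equal length; each library left out in turn gave 87 to 276, and both T1 libraries left out gave 60. The small differences between members and near-gene regions changed sign. For −log10 p rank the difference was -0.192 with at least 3 lists, -1.16 with any 1 Spi1 peak, -0.431 with a 3 kb limit and -0.0254 with summits, and from -0.893 to 1.32 with each library left out. For fold rank it was 0.918 at −log10 q of 5, 1.01 with equal lists, 0.573 with a 3 kb limit and 0.605 without both T1 libraries. For width it was 1.33 bp at −log10 q of 5 and 6.25 bp without both T1 libraries. None of these differences passed the threshold in any setting, and the cause of the changes was not tested. In all 25 alternatives the KO-iMOS difference was negative (-48.8 to -13.0 points), though 4 libraries cannot reach 0.05. The T2 minus T1 difference in share of a list, a description with no test, ranged from 0.547 to 8.47 points over 22 alternatives. These include a block by replicate number, which cannot change the difference.

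T1 and T2 libraries share replicate numbers, but the correlation of same-numbered Bcl11a libraries around their group means was 0.191, 0.0428 and 0.0420, so the numbers were not taken to pair samples. Of the T1 libraries, replicate 1 alone correlated best with its own number. With the replicate number as a block the T2 minus T1 difference was 1.78 points, as without it. With equal numbers of T1 and T2 libraries a block cannot change this difference.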
